A study of Rattus norvegicus with 46 samples.

Results

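A group of 7 genes of elastic fibres and of the fibroblasts around vessels and muscle bundles was followed through paralysis and passive loading of rat leg muscle: Eln, Fbn1, Fbln2, Mfap5, Lox, Loxl1 and Pi16. They were taken as a list of names, and part of the list was selected on the measured difference between loaded and unloaded legs at 9 to 14 d in these same arrays. The leg difference of that window is therefore given as a description with no test. The platform annotation gives each of the 7 genes 1 probe set, which stood for the gene. The 7 are among 14317 genes with a symbol and among the 9289 genes that passed a filter on low values. All 7 passed it.

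RNA came from the proximal gastrocnemius, a calf muscle, of 23 female Sprague-Dawley rats, measured on 46 single-colour Affymetrix arrays, 1 for each leg. Every rat, in every group, was anaesthetised with isoflurane, paralysed with the neuromuscular blocking agent α-cobrotoxin, which blocks the muscle acetylcholine receptor, and mechanically ventilated. The groups were loaded and unloaded legs studied for 6 h to 4 d (13 rats), 5 to 8 d (4 rats) and 9 to 14 d (6 rats). In loaded legs, which were left legs, a lever moved the ankle passively at 13.3 cycles per minute for 12 h per day, or for 6 h in the shortest experiment. The unloaded leg belonged to the same animal and shared its drugs and ventilation. No untreated rats and no ages were among the data used here, a window pools rats of different durations, and which legs belong to 1 rat was inferred from label numbers. A rat is named below by the number of its unloaded leg. Across genes, the deviations of paired legs had their 6 lowest correlations, -0.35 to 0.36, in rats 17, 19, 21, 23, 27 and 51, and 0.39 or more in the others, so the pairing of these 6 is uncertain.

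Elastic fibres give tissue recoil. Elastin, the product of Eln, is secreted as soluble tropoelastin and laid onto a scaffold of microfibrils, whose backbone is fibrillin-1 (Fbn1) and which carry the glycoprotein MAGP-2 (Mfap5). Fibulin-2 (Fbln2) binds both elastin and fibrillin-1. The copper enzymes lysyl oxidase (Lox) and lysyl oxidase-like 1 (Loxl1) oxidise lysines so that the chains become cross-linked, and Lox acts on fibrillar collagens as well. In skeletal muscle such fibres lie in vessel walls and in the connective tissue sheaths around fibres and fascicles. Pi16 encodes peptidase inhibitor 16, a secreted or membrane-bound protein. It marks fibroblasts of the vessel adventitia and of fascial planes in mouse single-cell data, and Mfap5 and Fbln2 are also expressed by those cells.

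The stretches just upstream of Loxl1, a cross-linking enzyme, and Mfap5, a microfibril protein, are shown from RefSeq on build GRCr8. Both genes averaged higher in loaded legs at 9 to 14 d, and of the genes in the table theirs are the upstream stretches that lie wholly outside the annotated gene. The Loxl1 stretch lies at chr8:67612225-67612474 on the minus strand and the Mfap5 stretch at chr4:157399669-157399918 on the plus strand, each 250 bases long and printed 5′ to 3′. Capitals mark the letters GTCTG or its reverse complement CAGAC, the core bound by SMAD factors of TGF-β signalling, and GGAATG or its reverse complement CATTCC, the core bound by TEAD factors, which act with the stretch-responsive co-activators YAP and TAZ.
Loxl1: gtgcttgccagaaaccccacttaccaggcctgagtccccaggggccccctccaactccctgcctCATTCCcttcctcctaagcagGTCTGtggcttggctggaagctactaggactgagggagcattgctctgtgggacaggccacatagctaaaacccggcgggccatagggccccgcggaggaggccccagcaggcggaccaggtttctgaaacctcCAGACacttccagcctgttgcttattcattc
Mfap5: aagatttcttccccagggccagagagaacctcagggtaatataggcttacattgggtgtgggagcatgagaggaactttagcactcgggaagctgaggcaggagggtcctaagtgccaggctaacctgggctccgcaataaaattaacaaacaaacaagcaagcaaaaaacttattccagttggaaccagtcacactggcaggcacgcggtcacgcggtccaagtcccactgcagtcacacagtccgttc
The Loxl1 stretch holds 2 SMAD cores and 1 TEAD core, and the Mfap5 stretch holds neither. The motifs do not overlap each other. Of 33469 rat promoters of the same length, 42.9% hold the SMAD core and 12.1% the TEAD core on either strand, so both are common sequences. Of the 7 genes, 5 had a promoter in the table. The stretch of Fbn1 lies within the annotated gene and those of Fbln2 and Pi16 overlap its start, so these are not printed, and the genes without an entry are Eln and Lox.

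All values are log2 intensities of a probe set after robust multi-array averaging (RMA). Levels of different genes are not compared, because probe sets differ in brightness. Array medians lay between 6.07 and 6.20, and all 7 genes were above the median of their own array on all 46 arrays, except Pi16 in 1 of the 4 unloaded legs at 5 to 8 d. The tissue matched its label: 9 measured skeletal muscle markers averaged between 12.5 and 13.5 on every array. Label codes, the digits that end each label and are numbered 1 to 5 here, are uneven over windows. Codes 1, 2 and 4 hold rats of 6 h to 4 d alone, code 5 holds none of them, and code 3 holds 4, 2 and 4 rats of the windows in order. Rats 35 and 37, of the shortest window, were placed toward the later windows by an earlier examination of these arrays, so duration results are also given without both.

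Each of the 7 genes averaged higher in loaded than in unloaded legs at 9 to 14 d, by 0.60 to 1.07 on the log2 scale, as their choice from this contrast implies. Eln had the smallest difference and the cleanest separation. Its level in loaded legs ran from 7.42 through a median of 7.76 to 8.17, against 6.95, 7.18 and 7.39 in unloaded legs. Every loaded leg was above every unloaded leg, which held for 4 of 9289 genes (0.0431%). The mean difference was 0.60 (SE 0.09, 1.52-fold, 6 of 6 rats). SEs of loading come from 1 fit over all windows, not from these 6 rats alone.

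The microfibril genes had larger differences and legs that overlapped. Fbn1 ran from 7.38 through 8.59 to 9.58 in loaded legs and from 6.86 through 7.49 to 8.57 in unloaded legs, a difference of 0.94 (SE 0.20, 6 of 6 rats). Mfap5 ran from 8.12 through 8.55 to 9.73 in loaded legs, against 7.54, 7.98 and 8.67 in unloaded legs, a difference of 0.73 (SE 0.17, 6 of 6 rats). Rat 49 was high in both legs for both genes, and its unloaded leg gave the highest unloaded value of each. Fbln2 had 8.18, 9.01 and 9.67 as the lowest, median and highest loaded leg, against 7.60, 7.92 and 8.79 in unloaded legs. Its difference was 1.00 (SE 0.16, 2.00-fold, 6 of 6 rats).

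The cross-linking enzymes varied most from rat to rat. Loxl1 ran from 7.67 through 8.82 to 10.53 in loaded legs and from 7.40 through 7.66 to 9.32 in unloaded legs, a difference of 0.99 (SE 0.19, 6 of 6 rats). The leg differences of single rats spanned 0.14 in rat 47 to 2.18 in rat 51, whose pairing is uncertain. Lox ran from 7.48 through 9.00 to 9.96 in loaded legs, against 7.09, 7.85 and 8.80 in unloaded legs, a difference of 1.04 (SE 0.29). Lox was higher in the loaded leg of 5 of 6 rats, and rat 47 had -0.31. These were the genes with the widest spread of leg differences, with an SD of 1.06 for Lox and 0.75 for Loxl1.

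Pi16, the adventitial fibroblast marker, had 7.18, 7.89 and 8.76 as its lowest, median and highest loaded leg, against 6.31, 6.95 and 7.47 in unloaded legs. Its difference was 1.07 (SE 0.20, 2.10-fold, 6 of 6 rats), the highest of the 7 genes. Rat 51, of uncertain pairing, had the highest leg difference in 5 genes: 2.03 for Fbn1, 1.75 for Fbln2, 2.18 for Loxl1, 2.46 for Lox and 1.68 for Pi16. Without rat 51, the mean differences were 0.72 for Fbn1, 0.85 for Fbln2, 0.75 for Loxl1, 0.75 for Lox and 0.95 for Pi16. Within label code 3 (4 rats) and code 5 (2 rats), the differences were 0.61 and 0.58 for Eln and 0.93 and 1.35 for Pi16. Of all 9289 genes, 25 (0.269%) differed between loaded and unloaded legs in this window at an adjusted p under 0.05, and 15 (0.161%) were higher.

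**Figure D1:**
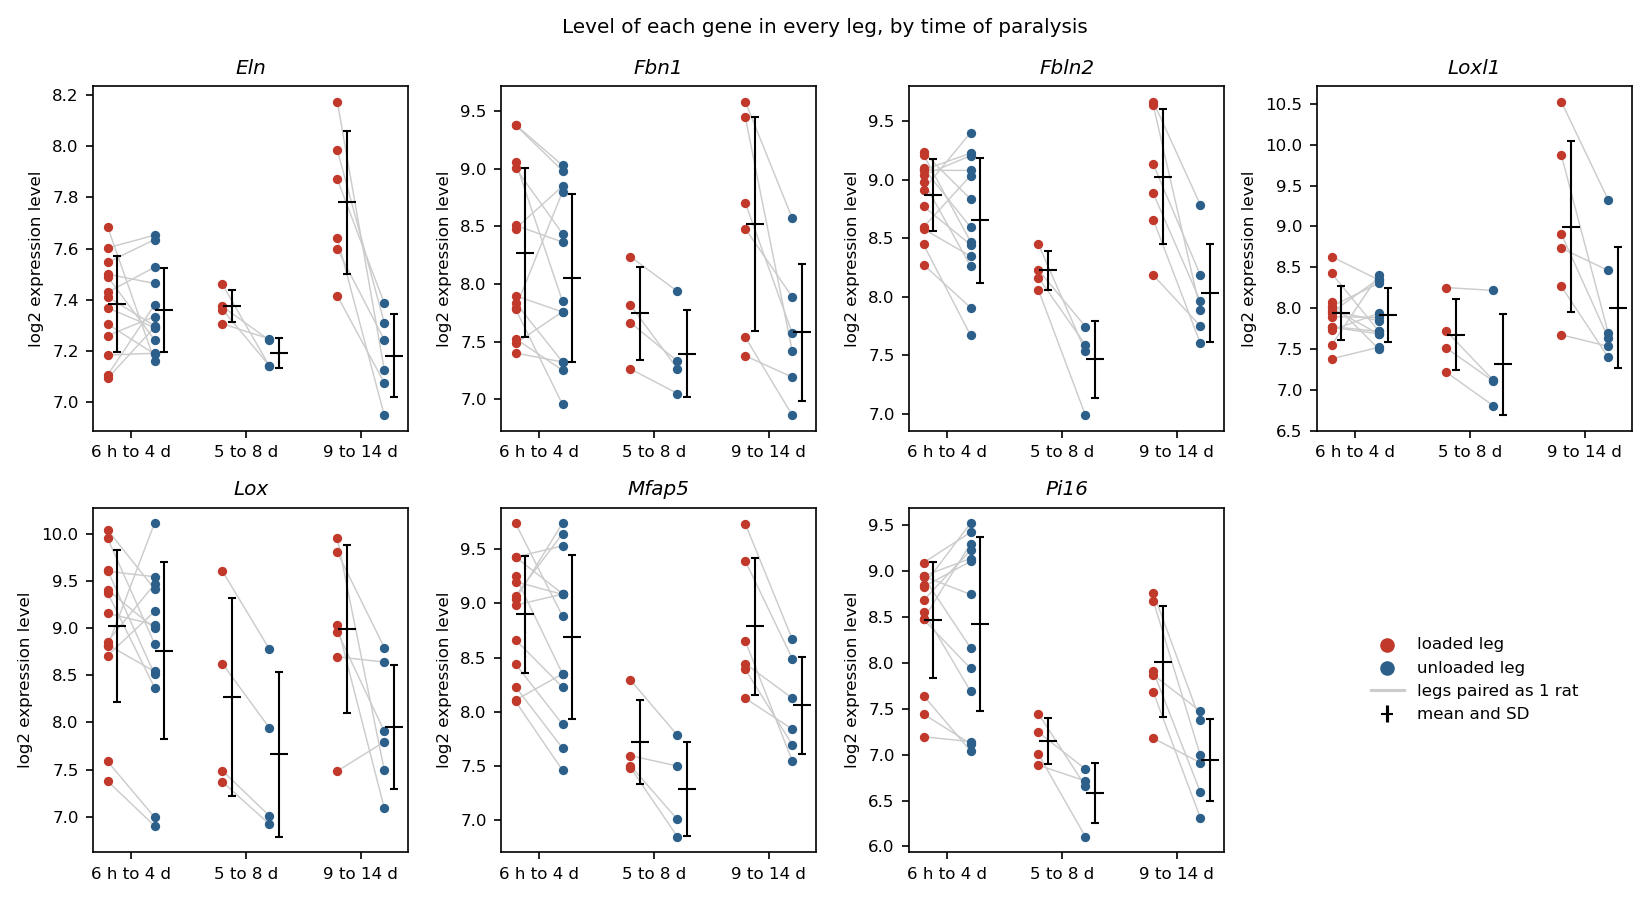
Log2 level (vertical axis) of the 7 genes in each of the 46 legs, 1 panel a gene, with loaded and unloaded legs of the 3 windows side by side, 1 point a leg, grey lines joining the legs paired as 1 rat, and the group mean with its SD in black. At 9 to 14 d the Eln points of loaded legs, from 7.42 to 8.17, stand clear of the unloaded legs, from 6.95 to 7.39, while the groups of the other 6 genes overlap.

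The 17 rats of the earlier windows were not used to choose the genes, so loading could be tested in them. No gene passed: limma called 0 of 9289 genes (0%) over these 17 rats, although 1121 reached 0.05 before adjustment and the lowest adjusted p of any gene was 0.077. All 7 genes averaged higher in loaded legs, with a median difference of 0.25 against -0.01 over all genes. Fbln2 came closest, with a mean level of 8.72 in loaded legs, against 8.37 in unloaded legs (difference 0.35, SE 0.09, 95% interval 0.15 to 0.54, adjusted p = 0.141, higher in 13 of 17 rats). Lox differed by 0.34 (SE 0.17, adjusted p = 0.43, 14 of 17 rats), Mfap5 by 0.26 (SE 0.10, adjusted p = 0.298, 12 of 17) and Fbn1 by 0.25 (SE 0.12, adjusted p = 0.413, 14 of 17). Pi16 differed by 0.16 (SE 0.12, adjusted p = 0.627, 11 of 17) and Loxl1 by 0.10 (SE 0.11, adjusted p = 0.766, 12 of 17). Eln had the least, 0.06 (SE 0.05, 95% interval -0.05 to 0.17, adjusted p = 0.671, 10 of 17 rats).

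The leg difference of Fbln2 in these rats had opposite signs under different label codes. It averaged -0.33 in the 2 rats of code 2, against 0.62 in the 6 of code 3, 0.29 in the 6 of code 4 and 0.53 in the 2 of code 5, and code 1 held 1 rat. Lox showed the same order of signs, with -0.54 under code 2 and 0.60, 0.36 and 0.58 under codes 3, 4 and 5. Whether the codes mark a technical batch is not stated in the labels.

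At 6 h to 4 d, 3 of the genes lay near no difference, the other 4 averaged 0.21 to 0.26 higher in loaded legs, and single rats went both ways. Eln differed by 0.02 between loaded and unloaded legs and was higher in 6 of 13 loaded legs, Loxl1 by 0.02 (8 of 13) and Pi16 by 0.04 (7 of 13). Fbn1 differed by 0.22 (10 of 13), Fbln2 by 0.22 (9 of 13), Mfap5 by 0.21 (8 of 13) and Lox by 0.26 (10 of 13). Single rats ranged from -1.31 (rat 21) to 1.12 (rat 23) for Lox, both of uncertain pairing, and from -0.82 to 0.87 for Pi16. No gene passed in this window (0 of 9289 called by limma, 1075 at an unadjusted p under 0.05).

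At 5 to 8 d every one of the 7 genes was higher in the loaded leg of all 4 rats, and none passed. How many of all genes were so was not counted, while 50.1% of them averaged higher in loaded legs. Apart from Eln, the leg differences of the genes varied together, so these are not 7 separate results. Fbln2 had 8.06, 8.45, 8.16 and 8.23 in the loaded legs of rats 41, 43, 53 and 55, against 6.99, 7.53, 7.59 and 7.74 in their unloaded legs. Its difference was 0.76 (SE 0.19, 1.70-fold, 95% interval 0.36 to 1.16, adjusted p = 0.204). Pi16 had 7.004, 7.45, 6.89 and 7.24 in the loaded legs of the same rats, against 6.11, 6.66, 6.71 and 6.84 in the unloaded legs (difference 0.57, SE 0.25, adjusted p = 0.649). Eln had 7.37, 7.36, 7.31 and 7.46 in loaded legs, against 7.24, 7.14, 7.25 and 7.14 in unloaded legs (difference 0.18, SE 0.11, adjusted p = 0.815). For these 3 genes every loaded leg was above every unloaded leg, which held for 43 of 9289 genes (0.463%). The other differences were 0.61 for Lox, 0.44 for Mfap5, 0.36 for Loxl1 and 0.35 for Fbn1, with adjusted p from 0.719 to 0.91. limma called 0 genes in this window, with 644 at an unadjusted p under 0.05. With array quality weights, an alternative fit, Fbln2 (0.63, adjusted p = 0.00915) and Mfap5 (0.58, adjusted p = 0.0226) passed in this window, and Fbln2 passed over the 17 rats (0.33, adjusted p = 0.0388). The same fit called 1182 of all 9289 genes in this window and 283 over the 17 rats.

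The loading difference was larger at 5 to 8 d than at 6 h to 4 d for each of the 7 genes, by 0.13 (Fbn1) to 0.54 (Fbln2), and none of these increments passed. It was also larger for 53.4% of all genes. Of the lists described below, this held for 17 of 18 other elastic fibre genes, 9 of 12 adventitial and 7 of 7 fibroblast markers, against 2 of 7 macrophage markers. The 95% interval was 0.09 to 1.00 for Fbln2 (adjusted p = 0.784) and -0.07 to 1.12 for Pi16 (adjusted p = 0.864). limma called 0 genes for this contrast, with 557 at an unadjusted p under 0.05. The mean differences of the 3 windows in order were 0.02, 0.18 and 0.60 for Eln, 0.22, 0.76 and 1.00 for Fbln2, and 0.04, 0.57 and 1.07 for Pi16, of which the last values chose the genes.

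**Figure D2:**
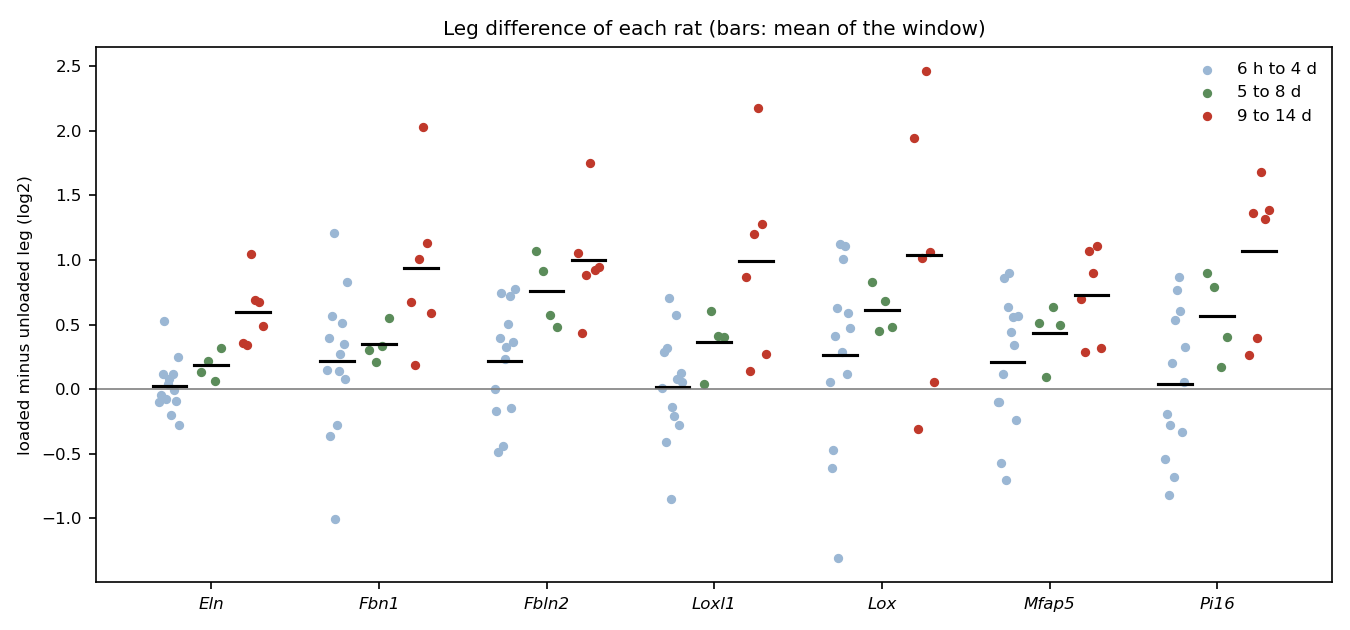
Loaded minus unloaded leg (log2, vertical axis) for each of the 7 genes, 1 point a rat, coloured by window, with a bar at the window mean. At 6 h to 4 d the points lie on both sides of 0, at 5 to 8 d all 4 rats lie above 0 for every gene, and at 9 to 14 d 1 point, rat 47 for Lox, lies below it.

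With time, the level averaged over both legs was lower at 5 to 8 d than at 6 h to 4 d for Pi16, Mfap5 and Fbln2. This mean over the legs of a rat is a different quantity from the leg difference that chose the genes. Pi16 fell by 1.58 (log2, SE 0.34) or 3.00-fold, with an adjusted p = 7.01e-04 and means of 6.86 ± 0.24 at 5 to 8 d (SD, n = 4) and 8.45 ± 0.75 at 6 h to 4 d (SD, n = 13). All 4 rats of the later window were below all 13 of the earlier one, the highest being 7.05 and the lowest 7.17, which held for 345 of 9289 genes (3.71%). Mfap5 fell by 1.29 (SE 0.30, 2.45-fold, adjusted p = 0.00137), with 7.50 ± 0.39 and 8.79 ± 0.61, and Fbln2 fell by 0.92 (SE 0.21, adjusted p = 0.00112), with 7.84 ± 0.22 and 8.76 ± 0.38. Lox differed by -0.93 (SE 0.42, adjusted p = 0.073), Fbn1 by -0.59 (SE 0.35, adjusted p = 0.172), Loxl1 by -0.43 (SE 0.27, adjusted p = 0.198) and Eln by -0.09 (SE 0.09, adjusted p = 0.442).

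These 3 of 7 stand beside 44.4% of all genes called in this comparison, 15.1% lower, so a change with duration was common. The 3 calls held in unloaded legs alone (Pi16 -1.85, Mfap5 -1.41, Fbln2 -1.19) and in loaded legs alone (-1.32, -1.18 and -0.65). They did not hold once label code was a block: Pi16 was then -1.002 (adjusted p = 0.104), Mfap5 -0.67 (adjusted p = 0.241) and Fbln2 -0.68 (adjusted p = 0.0993). Within code 3, with 2 rats against 4, the values were -0.96, -0.61 and -0.73, and none passed. Of all 9289 genes, 1324 passed with label code as a block and 2 within code 3. Without rats 35 and 37, whose Pi16 averaged 7.17 and 7.28 over both legs, the 3 calls held and Lox passed as well (-1.23, adjusted p = 0.00165). These rats were picked for lying toward the later windows in the same arrays. Leaving them out therefore favours a larger fall and is no separate support.

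Between 9 to 14 d and 6 h to 4 d, Pi16 fell by 0.97 (SE 0.29, adjusted p = 0.00809), with means of 7.48 ± 0.44 at 9 to 14 d (SD, n = 6) and 8.45 ± 0.75 at 6 h to 4 d (SD, n = 13). Its difference was -1.48 in unloaded legs, against -0.45 in loaded legs. Low unloaded legs at 9 to 14 d favoured the choice of the genes, so this adjusted p is no separate test. Loxl1 averaged 8.50 ± 0.83 and 7.93 ± 0.26, a difference of 0.58 (SE 0.23). Its adjusted p = 0.0414 is no test of its own, since the difference lay in the loaded legs, which entered the choice of the genes. It was 1.06 in loaded legs, against 0.09 in unloaded legs. Of all genes, 52.2% were called in this comparison, 33.1% higher and 19.1% lower. Mfap5 differed by -0.37 (adjusted p = 0.234), Lox by -0.42 (adjusted p = 0.33), Fbln2 by -0.23 (adjusted p = 0.279), Fbn1 by -0.11 (adjusted p = 0.774) and Eln by 0.11 (adjusted p = 0.224).

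The genes were partly chosen on the difference between the legs at 9 to 14 d, so each leg alone is a description here, with no test. High values in loaded legs and low values in unloaded legs both favoured the choice. In unloaded legs Pi16 differed by -1.48, Fbln2 by -0.62 and Loxl1 by 0.09. In loaded legs Eln differed by 0.40 and Pi16 by -0.45. With label code as a block, Pi16 was -0.35 (adjusted p = 0.472) and Loxl1 0.73 (adjusted p = 0.101). Within code 3, with 4 rats against 4, they were -0.37 and 0.65, and neither passed. On leaving out single rats, the Loxl1 difference was lowest without rat 49, at 0.29 (0.56 without rats 35 and 37), and its adjusted p was above 0.05 without any 1 of rats 11, 17, 23, 27, 29, 31, 37, 49, 51 and 59. Without rats 35 and 37, Fbln2 (-0.36, adjusted p = 0.0484) and Lox (-0.73, adjusted p = 0.021) passed beside Pi16, a choice of rats that favours a fall. The legs of 9 to 14 d also entered the choice of the genes, so these calls are no separate test.

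Between the later windows no gene of the 7 passed, and all had higher means at 9 to 14 d than at 5 to 8 d. So did 47.6% of all genes, 15 of 18 other elastic fibre genes, 7 of 7 fibroblast and 7 of 7 macrophage markers, against 2 of 9 skeletal muscle markers. The differences of the 7 genes were 1.01 for Loxl1 (SE 0.30, adjusted p = 0.0792), 0.92 for Mfap5 (SE 0.34, adjusted p = 0.143), 0.68 for Fbln2 (SE 0.23, adjusted p = 0.118), 0.62 for Pi16, 0.51 for Lox, 0.48 for Fbn1 and 0.20 for Eln. Of all genes 1.67% were called, 1.13% as higher. All 7 genes thus had their lowest mean over both legs at 5 to 8 d, and so did the 7 measured fibroblast markers. For the genes whose fall to 5 to 8 d passed, the means in order of window were 8.45, 6.86 and 7.48 for Pi16, 8.79, 7.50 and 8.43 for Mfap5, and 8.76, 7.84 and 8.53 for Fbln2.

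**Figure D3:**
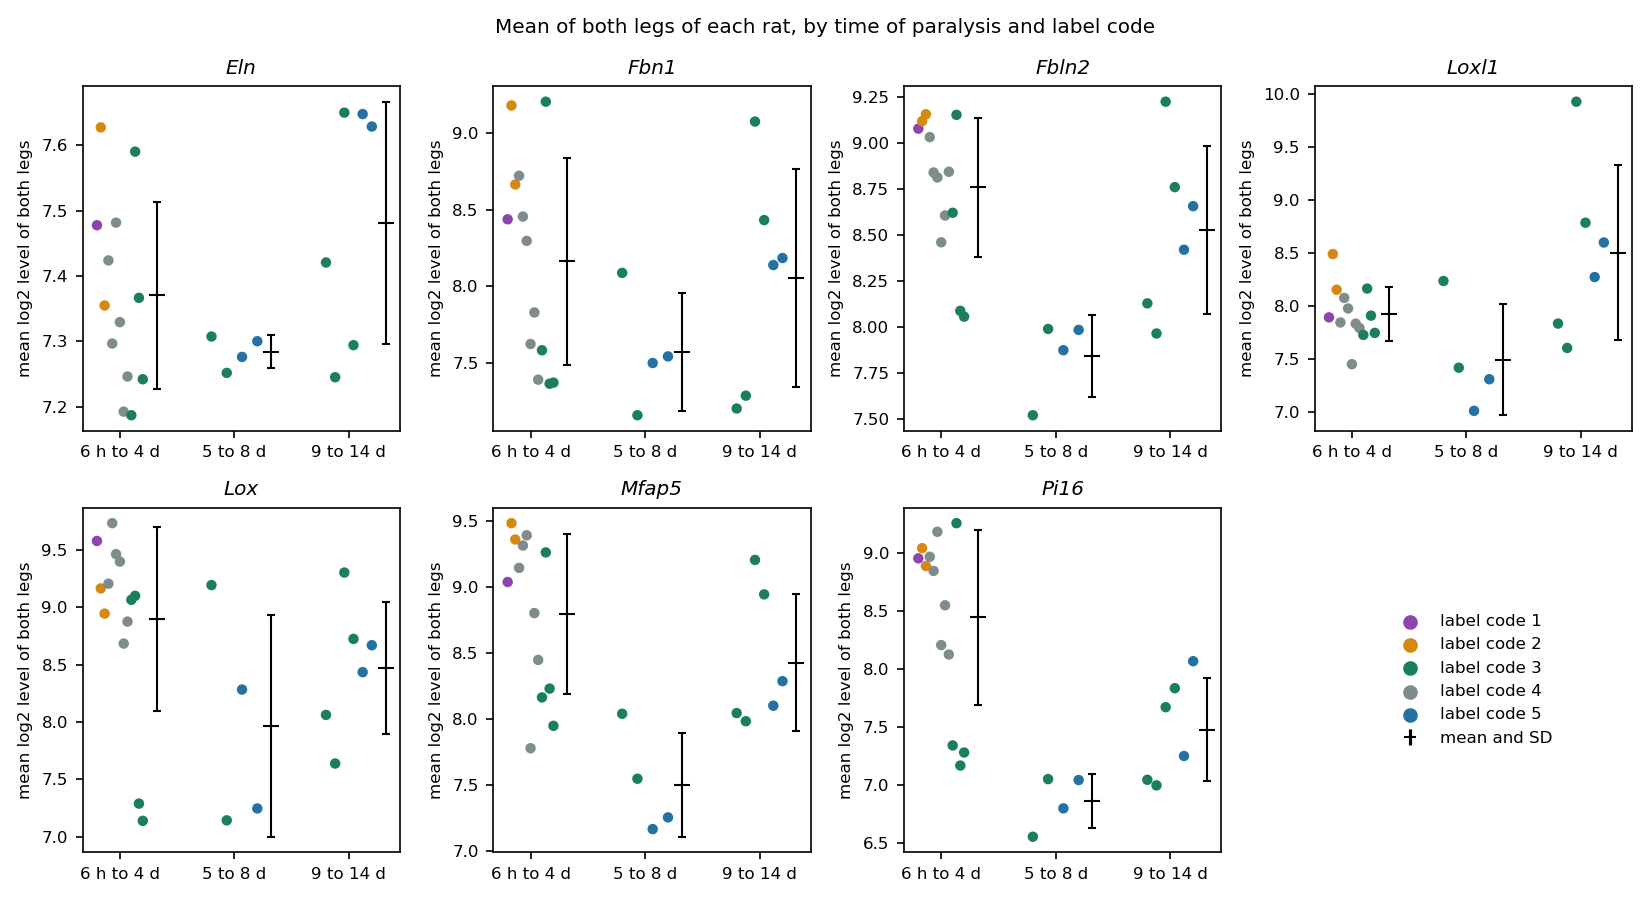
Mean log2 level over both legs of a rat (vertical axis) for the 7 genes in the 3 windows, 1 point a rat, coloured by label code, with the window mean and its SD in black. Pi16 averages 8.45, 6.86 and 7.48 in window order, and within the shortest window the rats of code 3 include the low points near 7.2 and 7.3.

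Most general fibroblast markers also passed as lower at 5 to 8 d, but few passed with label code as a block. In whole muscle, fewer cells of a type and less RNA per cell cannot be told apart. Of 7 measured fibroblast markers 6 fell at 5 to 8 d against 6 h to 4 d and none rose (median -0.88, against 0.06 over all genes, of which 15.1% were called lower). With label code as a block 1 of the 7 passed, within code 3 alone 0, and without rat 43 3. Of all 9289 genes, 1324 passed with label code as a block and 2 within code 3, so those settings called few genes of any kind. The collagen I genes fell most, Col1a1 by 2.60 (SE 0.58, adjusted p = 0.00112) and Col1a2 by 1.89 (SE 0.43, adjusted p = 0.0011), and Lum, a collagen-binding proteoglycan, fell by 1.29 (adjusted p = 0.0283). Pdgfra, the receptor that marks muscle mesenchymal cells, was the fibroblast marker that did not pass. The summed log2 level of the fibroblast list ran from 12.63 to 13.42 in loaded and 12.55 to 13.27 in unloaded legs at 5 to 8 d, against 12.97 to 14.32 in loaded and 12.93 to 14.19 in unloaded legs at 6 h to 4 d. Of the 7, 2 were lower at 9 to 14 d than at 6 h to 4 d, Col1a1 by 1.65 and Col1a2 by 1.18, where 19.1% of all genes were called lower. Fap, a marker of activated fibroblasts, was below the filter. The part of cell number in the result was not tested.

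Other adventitial and universal fibroblast markers went mostly the same way. Of 12 measured, 7 fell and 1 rose at 5 to 8 d against 6 h to 4 d (median -0.59). Beside these, 15.1% of all genes were called lower and 29.3% higher. Igfbp6, which binds insulin-like growth factor 2, fell by 1.82 (SE 0.27, adjusted p = 2.25e-05), Col14a1, a fibril-associated collagen, fell by 1.49 (SE 0.38, adjusted p = 0.00291), and Fndc1 fell by 1.41 (SE 0.29, adjusted p = 4.27e-04). Sema3c, a secreted guidance protein, rose by 0.51 (adjusted p = 0.0162). Of the 12, 6 fell at 9 to 14 d against 6 h to 4 d and none rose, led by Fndc1 (-0.93), Igfbp6 (-0.91) and the complement regulator Cd55 (-0.64). Over all genes 19.1% were called lower and 33.1% higher. Dpp4 and Wnt2 were below the filter, and Col15a1, Clec3b and Pcolce2 had no listed probe set. With label code as a block, 1 of 12 passed at 5 to 8 d and 0 at 9 to 14 d, as did 0 of the 7 fibroblast markers at 9 to 14 d. That setting called 1324 of all 9289 genes at 5 to 8 d and 2734 at 9 to 14 d. Without rat 59, 3 of 12 passed at 9 to 14 d.

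Among 18 other measured genes of elastic fibre assembly, 9 fell and 1 rose at 5 to 8 d against 6 h to 4 d (median -0.41). Over all genes 15.1% were called lower and 29.3% higher. The microfibril-associated Mfap4 fell by 1.71 (SE 0.42, adjusted p = 0.00242), Ltbp4, which anchors latent TGF-β and is needed for elastin deposition, fell by 1.51 (SE 0.21, adjusted p = 1.04e-05), and Adamtsl4, a fibrillin-1 binding protein, fell by 1.12 (adjusted p = 7.84e-05). Fbln5 and Efemp2, the fibulins that bring elastin and lysyl oxidase together, fell by 0.54 and 0.56, and Mfap2, the relative of Mfap5, by 0.83. Ltbp1, which carries latent TGF-β on microfibrils, rose by 1.86 (SE 0.40, adjusted p = 8.15e-04). At 9 to 14 d against 6 h to 4 d, 3 rose (Ltbp1 by 1.87, Bmp1 by 0.72 and Ltbp3 by 0.23) and 4 fell, led by Ltbp4 (-1.46), Adamtsl4 (-0.997) and Loxl4 (-0.54). Such calls were common, with 33.1% of all genes higher and 19.1% lower. Bmp1 is the protease that activates lysyl oxidase. Set against 5 to 8 d, 4 rose at 9 to 14 d and none fell: Mfap4 by 2.01 (SE 0.48, adjusted p = 0.0397), Fbln1 by 1.26, Ltbp3 by 0.48 and Fbln5 by 0.44. Over all genes 1.13% were called higher and 0.538% lower there. With label code as a block 3, 5 and 3 of the 18 passed in these comparisons, and within code 3 alone 0, 1 and 0. Over all 9289 genes the block called 1324, 2734 and 79, and code 3 alone 2, 1165 and 0. In the last comparison 2 of the 18 passed with no filter on low values and 0 in either leg alone. Leaving out 1 rat left 0 to 4 of the 18 there, fewer than 3 without any 1 of rats 11, 13, 17, 27, 41, 49, 51, 53, 55 and 59. Fbn2, Emilin2, Thsd4, Adamts10, Fbln7 and Svep1 had no listed probe set.

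**Figure D4:**
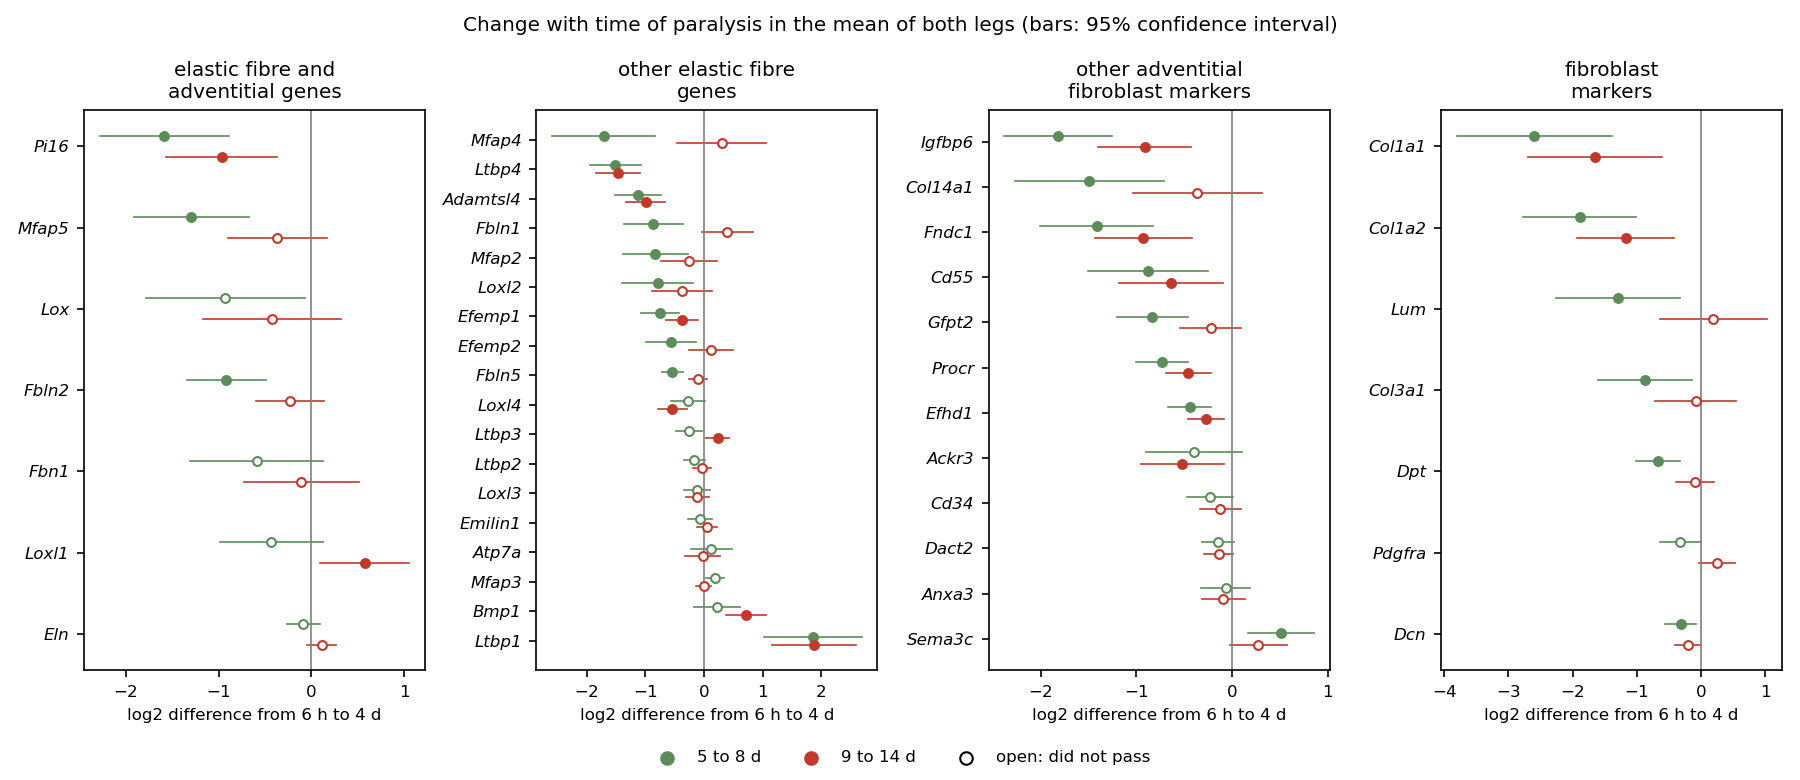
Log2 difference in the mean of both legs (horizontal axis) of 5 to 8 d (green) and 9 to 14 d (red) from 6 h to 4 d, 1 row a gene, for the 7 genes and the 3 related lists, with bars for the 95% interval and filled points for an adjusted p under 0.05. The red points of the 7 genes include the legs whose difference chose them. At 5 to 8 d most points of each panel lie below 0, with medians of -0.92, -0.41, -0.59 and -0.88 from left to right.

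For loading, no other elastic fibre gene, fibroblast or adventitial marker passed over the 17 rats of the earlier windows or at 5 to 8 d, where leaving out rat 41 gave 1 elastic fibre gene and 1 adventitial marker. With array quality weights, 1 elastic fibre gene passed over the 17 rats, and 3 of 18 elastic fibre genes, 2 of 12 adventitial and 2 of 7 fibroblast markers passed at 5 to 8 d. That fit called 283 of all 9289 genes over the 17 rats and 1182 at 5 to 8 d. For loading at 9 to 14 d 1 of 18 elastic fibre genes passed: Ltbp2, a microfibril protein, was higher in loaded than in unloaded legs by 0.36 (SE 0.08, adjusted p = 0.047). No gene of the 18 passed there with no replicate block, with that window alone, with no filter on low values, or without any 1 of rats 11, 13, 15, 17, 21, 23, 27, 29, 31, 35, 45, 49, 51, 53 and 57. Mfap4 had a larger and more variable difference, 0.96 at 9 to 14 d (SE 0.25, adjusted p = 0.0765), 1.39 at 5 to 8 d (SE 0.30, adjusted p = 0.161) and 0.50 over the 17 earlier rats (SE 0.15, adjusted p = 0.155). Ltbp4 differed by 0.35 and Emilin1, which sits between elastin and microfibrils, by 0.26 at 9 to 14 d, neither passing. Others were lower in loaded legs, again without passing: Efemp1, a fibulin relative, by -0.52 (SE 0.15, adjusted p = 0.12), Fbln1 by -0.40, Mfap2 by -0.37 and Fbln5 by -0.20. The median difference at 9 to 14 d was 0.05 over the 18 elastic fibre genes, 0.16 over the 12 adventitial markers and 0.25 over the 7 fibroblast markers, against -0.01 over all genes. The summed level of the fibroblast markers at 9 to 14 d ran from 12.96 to 13.98 in loaded legs and from 13.02 to 13.70 in unloaded legs. Cd34, found on adventitial fibroblasts and endothelium, differed by 0.34 (adjusted p = 0.385) and Pdgfra by -0.12 (adjusted p = 0.748).

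Of 5 measured enzymes that cut elastin, 1 rose and 2 fell at 5 to 8 d, and 2 rose at 9 to 14 d, beside 44.4% and 52.2% of all genes called. With label code as a block 1 and 2 of the 5 passed, and within code 3 alone 0 and 1. Over all 9289 genes the block called 1324 and 2734, and code 3 alone 2 and 1165. Ctsl, the lysosomal cathepsin L, rose by 1.90 at 5 to 8 d (SE 0.27, adjusted p = 1.11e-05) and by 1.76 at 9 to 14 d (SE 0.23, adjusted p = 1.85e-06), both against 6 h to 4 d. Ctss, the cathepsin of macrophages, fell by 0.79 at 5 to 8 d and rose by 0.67 at 9 to 14 d, and Ctsk fell by 0.74 at 5 to 8 d. Mmp2 and Mmp14 did not pass, and Mmp9, Mmp12 and Elane were below the filter. None of the 5 passed for loading in any window.

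Markers of other cells were measured beside these genes. At 9 to 14 d against 6 h to 4 d, 4 of 7 macrophage markers rose and none fell (median 0.76), 4 of 9 smooth muscle and pericyte markers fell, 2 of 5 endothelial and 1 of 7 adipocyte markers fell, 1 of 3 Schwann cell markers rose, and 5 of 9 skeletal muscle markers fell (median -0.23), beside 33.1% of all genes called higher and 19.1% lower. At 5 to 8 d 4 of 9 smooth muscle and pericyte and 2 of 9 skeletal muscle markers fell, and no macrophage, endothelial, adipocyte or Schwann cell marker passed. In that comparison 15.1% of all genes were called lower. Of 4 tendon markers, 3 fell and 1 rose in both comparisons. With label code as a block, 5 macrophage, 2 smooth muscle and pericyte, 1 endothelial, 1 adipocyte, 1 Schwann cell, 4 skeletal muscle and 0 tendon markers passed at 9 to 14 d, and at 5 to 8 d 2 tendon markers and none of the others. Within code 3 alone, 1 skeletal muscle marker passed at 9 to 14 d and no other marker of these lists in either comparison. Of all 9289 genes, the block called 2734 at 9 to 14 d and 1324 at 5 to 8 d, and code 3 alone 1165 and 2. After cyclic loess 7 of 9 smooth muscle and pericyte markers passed in both comparisons. For loading none of these lists had a gene that passed in any window, except 3 skeletal muscle and 2 tendon markers at 5 to 8 d with array weights. Those weights called 1182 of all 9289 genes there. The medians at 9 to 14 d were -0.36 for macrophage, 0.03 for smooth muscle and pericyte, -0.24 for tendon and -0.38 for adipocyte markers. Their part in the levels of the 7 genes was not tested.

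The leg differences of the 7 genes varied together from rat to rat, apart from Eln. Across 23 rats, Pearson's r between leg differences was 0.54 to 0.88 for the 15 pairs without Eln (median 0.72) and 0.32 to 0.68 for the 6 pairs with it. In the 17 rats up to 8 d the ranges were 0.37 to 0.82 and -0.27 to 0.27. Genes of 1 rat share the same pair of arrays and RNA samples, and the rats of all windows are pooled, so these values only describe the set. The closest pair was Fbn1 and Loxl1 (r = 0.88). Of all 9289 genes, the leg differences most like those of Fbn1 outside the list were Fstl1 (r = 0.84) and Creb5 (0.83), and Mfap5 lay nearest to Sulf2 (0.83), Fstl1 (0.82) and Fn1 (0.75). Fbln2 lay nearest to Col14a1 (0.83), Ltbp4 (0.83) and Lox (0.81). Loxl1 lay nearest, after Fbn1, to Iffo1 (0.82) and Acta1 (0.81), and Lox to Emp1 (0.86), Ccn2 (0.83) and Calhm5 (0.82). Pi16 lay nearest to Efhd1 (0.83), Fbln2 (0.78) and Procr (0.78), and Eln to Spaca9, Gpr153 and Sohlh2 (0.74 to 0.75). Over the 17 rats up to 8 d alone, r was 0.54 for Loxl1 with Iffo1 and 0.35 with Acta1, 0.57, 0.45 and 0.32 for Eln with its 3 neighbours, and 0.71 or more for the other pairs named.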

How the data were processed

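Per the submitters' processing notes, the authors made the deposited log2 values with RMA (version not stated), which corrects background, quantile-normalises and summarises probes. The table holds 26208 probe sets on 46 arrays, with values from 1.92 to 14.38. Quantile normalisation removes part of any shift shared by most transcripts. Scanner files and detection calls were not used here, and the number of arrays limits the precision. Of the probe sets, 15088 have 1 gene symbol in the platform annotation, 323 have several and 10797 no listed gene. Of the symbols, 15058 were checked against RefSeq (GRCr8) and 0 changed. Probe sets above their array's median on at least 4 arrays were kept (14834), and the brightest stood for its gene.

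The tests used R 4.3.3 and limma 3.58.1, with moderated two-sided statistics (eBayes) and Benjamini-Hochberg adjusted p over 9289 genes at a threshold of 0.05. For loading, 1 fit took the 46 arrays with a fixed term for each rat and a loading term per window, the 17 rats up to 8 d weighted equally. Duration was fitted on the mean of both legs of each rat. Legs were paired by label number and window. As a check, once group means were removed, loaded and unloaded leg of a pair had a correlation over genes above 0.1 for 21 of 23 rats (median 0.60), the exceptions being rats 17 (0.082) and 27 (-0.349), so the pairing rests on the labels. Whether the rats of a group are separate in every technical step is not stated. The p-values and SEs rest on a spread between these rats that is pooled over windows and moderated over genes. They do not give the spread within 1 window. For Lox the SD of leg differences was 0.18 at 5 to 8 d and 1.06 at 9 to 14 d, while the SEs were 0.35 and 0.29. On simulated data for loading up to 8 d over 9289 genes, 61 of 66 genes changed by 0.5 and 66 of 67 changed by 1 (log2) were recovered. For duration 9 to 14 d against 6 h to 4 d, 38 of 66 and 61 of 67 were. Among unchanged genes 7 were called for loading and 0 for duration. The simulation gave a gene 1 spread in all windows and built the leg pairs in. In the measured arrays spread differed and pairs were inferred, so these shares do not give the power there.

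The 7 genes and all lists (other elastic fibre genes, elastin-degrading enzymes, other adventitial and universal fibroblast markers, and markers of skeletal muscle, fibroblasts, smooth muscle and pericytes, endothelium, macrophages, tendon, adipocytes and Schwann cells) were chosen with earlier results of these data known. The text names all 7 genes, of other lists up to 3 passing genes per direction with the largest change and a fixed set of related genes, and the 3 genes most like each of the 7. Other genes named were chosen after their values were seen. Alternatives were cyclic loess, array quality weights, no filter, the mean of all probe sets, no rat block, own windows alone, each leg alone, label code as a block or code 3 alone, and leaving out rats.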

Additional observations from a re-analysis of the deposited data

Results flagged for a closer look

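The level of Mfap5 in 1 loaded leg at 5 to 8 d, the leg of rat 41, was 8.29 and lay far from the loaded legs of the other 3 rats of its window, which had 7.59, 7.50 and 7.48. The unloaded leg of the same rat was also the highest of its group, at 7.78. Of 42 groups of values examined, 1 stood out in this way, and chance alone gives about 1 in 20 groups.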

How the results depend on the processing

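Of the 7 genes, none passed for loading in the 17 rats up to 8 d, at 6 h to 4 d or at 5 to 8 d under any alternative, except with array quality weights, where 1 (Fbln2) passed as higher up to 8 d and 2 (Fbln2 and Mfap5) at 5 to 8 d. Between 9 to 14 d and 6 h to 4 d, 0 passed as higher and 0 as lower with label code as a block or within code 3. The calls were 0 higher and 3 lower without rats 35 and 37, 0 higher after cyclic loess, and 0 and 4 with array weights. Calls in each leg alone are not counted here, as both legs of 9 to 14 d entered the choice of the genes. The counts over both legs against 6 h to 4 d share that limit. Between 5 to 8 d and 6 h to 4 d 0 passed as lower with code as a block or within code 3, and 6 with array weights. Between the later windows 2 passed as higher with array weights. Leaving out 1 rat in turn gave 0 to 1 higher in both comparisons with 9 to 14 d. Some differences that did not pass changed sign. In unloaded legs Eln was -0.18 against 6 h to 4 d and -0.0114 against 5 to 8 d, and after cyclic loess -0.0092 against 6 h to 4 d. In loaded legs Fbn1 was 0.25 and Fbln2 0.16. With code as a block Fbn1, Fbln2, Lox and Mfap5 were 0.16, 0.0178, 0.36 and 0.18, and within code 3 they were 0.12, 0.0399, 0.28 and 0.14, with Lox at 0.02 at 5 to 8 d. Without rats 17, 19, 21, 23 and 27, loading at 6 h to 4 d was -0.0053 for Eln and -0.0047 for Pi16. Leaving out 1 rat gave -0.0169 to 0.0497 for Eln, -0.0377 to 0.0922 for Loxl1 and -0.0297 to 0.11 for Pi16 at 6 h to 4 d, and -0.31 to 0.0602 for Fbn1 with duration. The cause of these moves was not tested.

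The rat block, which pairs the legs, changed no call of the 7 genes. With no replicate block, Fbln2 up to 8 d kept its difference of 0.35 at an adjusted p of 1, and with a replicate block over its own windows the adjusted p was 0.181. Counts over all genes moved more. At 9 to 14 d loading called 25 genes, 2 with no replicate block, 0 with its own window alone, 37 after cyclic loess, 17 with no filter, 122 with array weights and 6 to 92 without 1 rat. Array weights called 1182 genes at 5 to 8 d, 283 up to 8 d, 9 at 6 h to 4 d and 526 for the difference between the windows, where the usual weights called 0. Leaving out 1 rat called 0 to 60, 0 to 22, 0 to 14 and 0 to 8 genes there, its own windows alone called 1 for the difference, and 2 passed at 6 h to 4 d without rats 17, 19, 21, 23 and 27. Duration called 4845, 4124 and 155 genes (9 to 14 d and 5 to 8 d against 6 h to 4 d, then the later windows), 2734, 1324 and 79 with code as a block, and 1165, 2 and 0 within code 3. The later windows gave 1808 with array weights, 281 without rats 35 and 37, 61 with no filter, 21 in either leg alone and 8 to 660 without 1 rat. With few arrays at 5 to 8 d and no detection calls, small differences of dim probe sets such as Pi16 in unloaded legs are the least certain.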
